A study of Mus musculus with 16 samples.

Results

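Expression of 10 genes of cholesterol handling and efflux was described in gonadal white adipose tissue (gWAT), with the genes taken by name (*Msr1*, *Scarb1*, *Lipa*, *Npc1*, *Npc2*, *Soat1*, *Abca1*, *Abcg1*, *Apoe* and *Nr1h3*) from a table of 19353 genes. All 10 were in the table, and all 10 passed a filter of at least 1 FPKM in at least 4 mice, as did 13147 genes in all. FPKM relates the fragments of a gene to the length of its exons and to all fragments mapped, so as a level per length it can be set side by side between genes. The RNA came from 16 male mice, 4 in each of 4 groups: *Mboat7* ASKO mice and their *Mboat7* flox/flox controls, each on chow or on a high fat diet (HFD) for 20 weeks. *Mboat7* encodes an enzyme that puts arachidonic acid back on lysophosphatidylinositol. Both genotypes carry the floxed *Mboat7* allele on a C57BL/6J background. The *Mboat7* ASKO mice also carry Cre recombinase under the adiponectin promoter, so macrophages and the other cells of the tissue that do not make adiponectin keep the gene. The mice were fasted for 4 h before the tissue was taken, and each library came from 1 mouse.

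Cells take up cholesterol with lipoproteins and with the lipid of dying cells and carry it to the lysosome, where an acid lipase cuts cholesteryl esters and a pair of sterol carriers passes free cholesterol on. Free cholesterol is then either esterified again for storage in droplets or pumped out to apolipoproteins, and the nuclear receptor LXR, which senses oxysterols, raises the transcription of the efflux genes. Macrophages of obese adipose tissue are known for a lysosomal lipid programme of this kind. Adipocytes use several of these genes too, *Apoe*, *Abca1*, *Scarb1* and *Nr1h3* among them.

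The targeted gene was low in every mouse. *Mboat7* was 0.902 to 4.99 FPKM in control and 0 to 2.89 FPKM in *Mboat7* ASKO mice on chow (exact two-sided permutation p = 0.143), and 0 to 2.15 and 0 to 2.60 FPKM on HFD (exact p = 1), so the genotype groups overlapped on both diets. RNA values this low cannot show whether the gene was deleted. By Western blot the study reported less MBOAT7 protein in gWAT of chow-fed *Mboat7* ASKO mice. It also reported less of the enzyme's main phosphatidylinositol product in gWAT on both diets. Steps in the low FPKM values put 232000 to 407000 fragments behind each mouse, at which 1 fragment of *Msr1* was worth 0.677 to 1.19 FPKM. Fragment numbers below are estimates on the longest coding transcript of a gene. All 16 macrophage markers looked at were in the table. Their summed level was 283 to 371 FPKM in control and 258 to 352 FPKM in *Mboat7* ASKO mice on chow, against 845 to 1279 and 982 to 1557 FPKM on HFD, with *Fcgr1* at 0 in all control and *Fcer1g* at 0 in all *Mboat7* ASKO mice on chow. The 10 adipocyte markers had a mean log2(FPKM + 1) of 7.22 ± 0.26 (SD, n = 4) in control and 7.25 ± 0.16 in *Mboat7* ASKO mice on chow, and of 6.59 ± 0.19 and 6.35 ± 0.09 on HFD.

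RefSeq promoter windows on GRCm38.p6 (the assembly also called mm10) were at hand for 6 of the 10 genes. The promoter of *Lipa*, which differed most clearly between the diets, is shown with that of *Soat1*, which rose in *Mboat7* ASKO mice, and that of *Abca1*, a well known LXR target whose groups overlapped. Each runs 5′ to 3′ over the 250 bases before the start of transcription, all on the minus strand, at chr19:34527475-34527724 for *Lipa*, chr1:156474329-156474578 for *Soat1* and chr4:53159896-53160145 for *Abca1*. Capitals mark GAGGAA, a core bound by ETS factors such as the macrophage factor PU.1, CACGTG, the E-box bound by TFEB and related factors, and GGGCGG, the GC box.
Lipa: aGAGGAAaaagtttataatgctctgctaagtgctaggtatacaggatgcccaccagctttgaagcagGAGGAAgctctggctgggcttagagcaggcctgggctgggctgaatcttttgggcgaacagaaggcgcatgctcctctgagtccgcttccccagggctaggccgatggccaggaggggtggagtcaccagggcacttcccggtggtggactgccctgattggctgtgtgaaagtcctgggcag
Soat1: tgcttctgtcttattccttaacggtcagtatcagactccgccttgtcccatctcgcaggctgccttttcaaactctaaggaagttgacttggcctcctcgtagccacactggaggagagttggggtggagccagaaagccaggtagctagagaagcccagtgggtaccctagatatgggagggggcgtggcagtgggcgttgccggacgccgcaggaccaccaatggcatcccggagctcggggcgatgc
Abca1: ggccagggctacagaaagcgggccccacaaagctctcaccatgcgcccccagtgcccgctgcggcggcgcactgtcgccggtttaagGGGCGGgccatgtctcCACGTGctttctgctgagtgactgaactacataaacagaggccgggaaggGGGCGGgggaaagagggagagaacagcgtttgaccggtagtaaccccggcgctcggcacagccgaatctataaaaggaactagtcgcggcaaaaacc

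The *Lipa* window held 2 copies of GAGGAA, and the *Soat1* window held none of the marked letters. The *Abca1* window held 1 CACGTG and 2 copies of GGGCGG. On either strand, GAGGAA stood in 23.3%, CACGTG in 6.02% and GGGCGG in 32.7% of the same 250 bases before 32851 starts of all genes. A match to GAGGAA or GGGCGG is thus common, and a match to CACGTG less so. GAGGAA also stood before *Apoe* and GGGCGG before *Npc2*. The longer E-box TCACGTGA (0.785% of all windows), which contains CACGTG, and the nuclear receptor half-site AGGTCA (14.0%) stood in none of the 9 windows of the 6 genes, nor did a pair of such half-sites in the same orientation with 4 bases between them (0.0152%). Only exact letters were counted, so a site with other letters at some positions is not found. The search therefore cannot tell whether an LXR site is present or absent in these windows. The *Abca1* window was the richest of the 3 in G and C (61.6%, with 20 CG dinucleotides), against 58.8% with 12 in *Soat1* and 58.0% with 5 in *Lipa*, where the median over all windows was 52.4% with 6.

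The diet comparison asks how the genes differ in gWAT after HFD within each genotype. In control mice *Lipa* and *Msr1* rose on HFD and in *Mboat7* ASKO mice *Lipa*, *Msr1* and *Soat1* rose, by limma on log2(FPKM + 1) with Benjamini-Hochberg adjustment over all 13147 genes. To pass, a gene needed an adjusted p under 0.05 and a log2 fold change beyond 0.5 in either direction. The lipase, the scavenger receptor and the esterifying enzyme were thus higher, while the efflux transporters, *Apoe*, the Niemann-Pick genes, *Scarb1* and *Nr1h3* did not pass in either genotype. That is 2 of 10 genes in control mice, where 1.81% of all genes tested passed as higher (2.91% in both directions), and 3 of 10 in *Mboat7* ASKO mice, where 2.13% did (3.43% in both directions). The median log2 fold change of the 10 genes was 0.78 in control and 0.93 in *Mboat7* ASKO mice, with 7 and 8 of them above 0, while 50.0% and 51.4% of all genes were above 0. At an unadjusted p under 0.05, in either direction, there were 4 of the 10 in control mice (14.2% of all genes) and 6 in *Mboat7* ASKO mice (15.0%). Among these 6 was *Apoe*, which was lower on HFD. In both genotypes *Lipa*, *Msr1* and *Soat1* were higher in every mouse on HFD than in every mouse on chow, a pattern found in 4.45% of all genes in control and 5.18% in *Mboat7* ASKO mice. *Msr1* and *Soat1* met the filter on low values only through the HFD mice, the group in which they are high. Their place in these counts is therefore a description, and the counts beside the shares of all genes are no test of the 10 genes. In whole tissue, more cells of a type and more RNA per cell cannot be told apart, and the macrophage markers moved in the same comparisons: 7 of 16 passed as higher in control and 10 of 16 in *Mboat7* ASKO mice. Their part in the rise of the 3 genes was not tested.

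**Figure D1:**
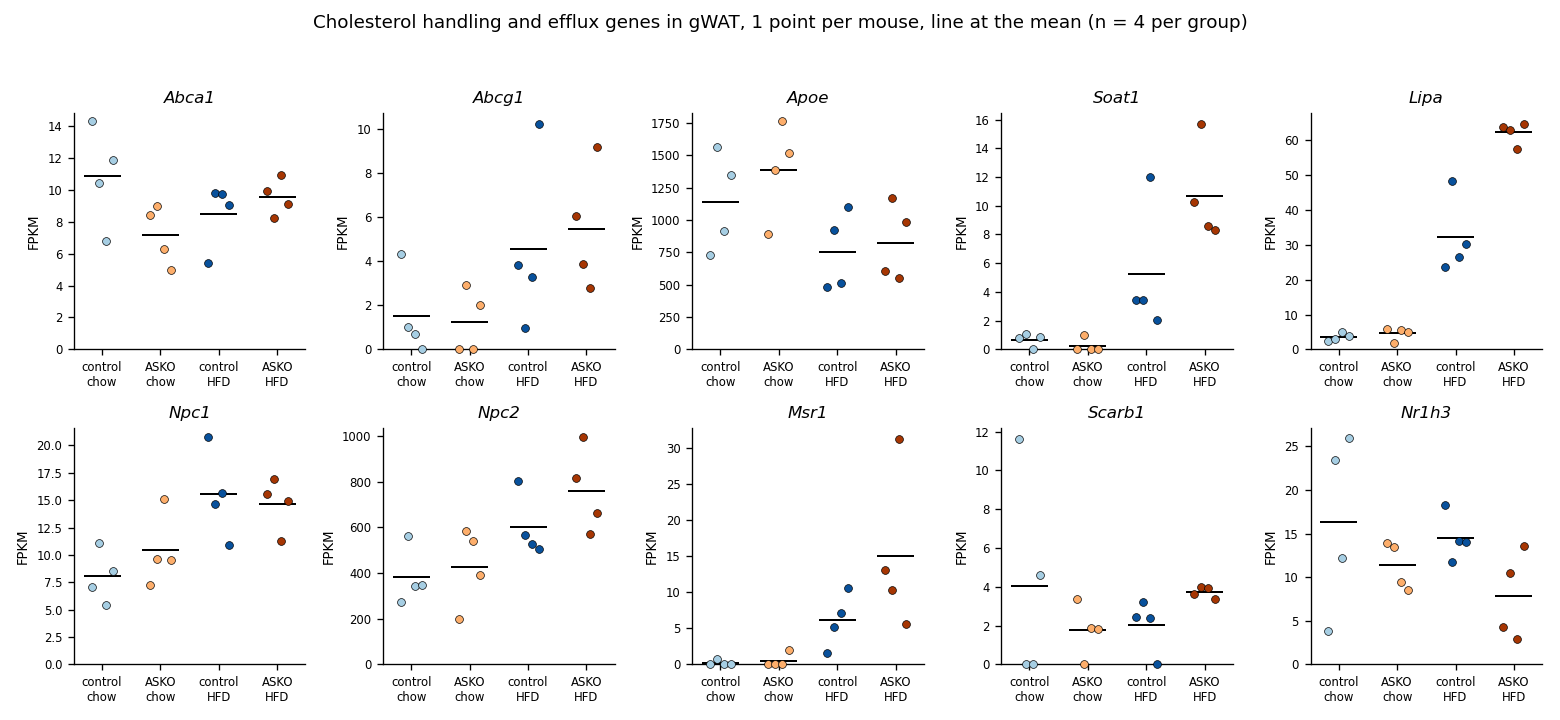
FPKM of the 10 genes in each of the 16 mice, by genotype and diet, with 1 point per mouse and a line at the group mean (n = 4), each panel on its own linear axis from 0. *Lipa*, *Soat1* and *Msr1* stand apart by diet in both genotypes, while *Abca1*, *Apoe* and *Nr1h3* overlap.

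Uptake was represented by 2 receptors. *Msr1* (chr8:39581685-39642673) encodes the class A scavenger receptor, which takes up modified lipoproteins and is largely a macrophage gene. On chow it was listed at 0 in 3 of 4 control mice and at 0.748 FPKM in the other, and at 0 in 3 of 4 *Mboat7* ASKO mice and at 2.05 FPKM in the other. On HFD it was 1.60, 5.18, 7.12 and 10.7 FPKM in control mice and 5.56, 10.3, 13.1 and 31.2 FPKM in *Mboat7* ASKO mice. The gene was thus close to absent from the chow libraries, at 0 to 1 fragment in control and 0 to 3 in *Mboat7* ASKO mice, and present in all 8 HFD libraries, at 2 to 11 and 7 to 42 fragments. Its log2 fold change was 2.44 (SE 0.59, adjusted p = 0.0308) in control and 3.36 (SE 0.59, adjusted p = 0.00338) in *Mboat7* ASKO mice, and 4.91 and 5.86 with a pseudocount of 0.1 in place of 1, since the size of a change from near 0 rests on that choice. In control mice *Msr1* did not pass without control chow replicate 0 (adjusted p = 0.0751), 2 (0.0835) or 3 (0.081), without control HFD replicate 1 (0.0732), 2 (0.0789) or 3 (0.101), or with no filter on low values (0.0503).

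*Scarb1* (chr5:125277087-125341094) encodes SR-BI, the receptor that exchanges cholesterol with high density lipoprotein. It was listed at 0, 0, 4.61 and 11.6 FPKM in control and at 0, 1.83, 1.86 and 3.39 FPKM in *Mboat7* ASKO mice on chow. On HFD it was 0, 2.39, 2.45 and 3.23 FPKM in control and 3.35, 3.63, 3.93 and 3.97 FPKM in *Mboat7* ASKO mice. The chow mice alone spanned the whole range, on 0 to 8 fragments. Neither diet difference passed, at -0.13 (SE 0.76, adjusted p = 0.981) in control and 0.95 (SE 0.76, adjusted p = 0.631) in *Mboat7* ASKO mice on the log2 scale, and at a pseudocount of 0.1 they were 0.48 and 1.83.

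Release from the lysosome was represented by 3 genes. *Lipa* (chr19:34492318-34527474) encodes lysosomal acid lipase, the enzyme that cuts cholesteryl esters and triglycerides taken up into the lysosome. It was 2.35, 3.10, 3.74 and 4.95 FPKM in control mice on chow and 23.8, 26.5, 30.2 and 48.4 FPKM on HFD. In *Mboat7* ASKO mice it was 1.88, 5.11, 5.49 and 5.97 FPKM on chow and 57.4, 63.1, 63.9 and 64.6 FPKM on HFD. Every HFD mouse lay far above every chow mouse, and the 4 *Mboat7* ASKO mice on HFD lay close together. The mean was 9.13 times as high on HFD in control mice (log2 fold change 2.85, SE 0.35, adjusted p = 0.00018) and 13.5 times in *Mboat7* ASKO mice (3.57, SE 0.35, adjusted p = 2.17e-05). *Lipa* passed in both genotypes under all 27 alternative settings, with log2 fold changes between 2.64 and 3.15 in control and between 3.28 and 3.85 in *Mboat7* ASKO mice. It moved from 2 to 5 fragments in each chow mouse to 62 to 75 in *Mboat7* ASKO and 24 to 43 in control mice on HFD.

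*Npc2* (chr12:84754560-84773112) encodes the soluble protein of the lysosome that hands cholesterol to the membrane protein NPC1. It was 271, 343, 347 and 563 FPKM in control and 198, 391, 539 and 584 FPKM in *Mboat7* ASKO mice on chow, and 504, 528, 568 and 802 FPKM and 569, 664, 815 and 994 FPKM on HFD. The chow mice of each genotype overlapped the HFD mice of the same genotype. The log2 fold change was 0.68 (SE 0.33, adjusted p = 0.356) in control and 0.91 (SE 0.33, adjusted p = 0.165) in *Mboat7* ASKO mice. *Npc1* was 5.44, 7.07, 8.55 and 11.1 FPKM in control and 7.29, 9.57, 9.66 and 15.1 FPKM in *Mboat7* ASKO mice on chow, and 10.9, 14.7, 15.7 and 20.8 FPKM and 11.2, 15.0, 15.6 and 16.9 FPKM on HFD. Its log2 fold change was 0.87 (SE 0.34, adjusted p = 0.221) and 0.49 (SE 0.34, adjusted p = 0.562). The 2 genes of the Niemann-Pick pathway thus had means on the higher side on HFD in both genotypes, with overlap and without passing. Exons of *Npc1* overlap those of *Rmc1* and *Gm15956* on the other strand in the annotation, and whether strand entered the counting was not given in the sources used here, so its values may hold reads of these genes.

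*Soat1* (chr1:156424525-156474331) encodes the acyltransferase that esterifies free cholesterol for storage in droplets. On chow it was listed at 0, 0.783, 0.854 and 1.06 FPKM in control mice and at 0, 0, 0 and 0.978 FPKM in *Mboat7* ASKO mice. On HFD it was 2.04, 3.41, 3.45 and 12.0 FPKM in control and 8.30, 8.58, 10.3 and 15.7 FPKM in *Mboat7* ASKO mice. The HFD and chow mice did not overlap in either genotype, and 1 control mouse on HFD (replicate 2, at 12.0 FPKM) stood among the *Mboat7* ASKO mice. *Soat1* rose in *Mboat7* ASKO mice (log2 fold change 3.26, SE 0.50, adjusted p = 0.000964, and 5.85 with a pseudocount of 0.1). In control mice the log2 fold change was 1.71 (SE 0.50; 2.92 with that pseudocount) with an adjusted p of 0.0836, so it did not pass, and it passed under none of the 27 alternative settings. These values rest on 0 to 3 fragments on chow, and on HFD on 25 to 53 in *Mboat7* ASKO and 5 to 30 in control mice.

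None of the efflux genes passed with diet. *Abca1* (chr4:53030787-53159895) encodes the transporter that loads cholesterol onto apolipoprotein A-I. It was 6.77, 10.4, 11.8 and 14.3 FPKM in control and 4.99, 6.31, 8.40 and 9.00 FPKM in *Mboat7* ASKO mice on chow, and 5.38, 9.01, 9.71 and 9.77 FPKM and 8.22, 9.12, 9.91 and 10.9 FPKM on HFD. All groups overlapped their diet counterpart, and the log2 fold change was -0.31 (SE 0.34, adjusted p = 0.776) in control and 0.39 (SE 0.34, adjusted p = 0.674) in *Mboat7* ASKO mice, on 17 to 43 fragments. *Abcg1* (chr17:31057698-31115777), whose product passes cholesterol to high density lipoprotein, was listed at 0, 0.719, 0.998 and 4.33 FPKM in control and at 0, 0, 1.99 and 2.92 FPKM in *Mboat7* ASKO mice on chow. It was 0.957, 3.29, 3.82 and 10.2 FPKM and 2.80, 3.88, 6.07 and 9.18 FPKM on HFD. The HFD means were higher but the mice overlapped, with log2 fold changes of 1.16 (SE 0.66, adjusted p = 0.472) and 1.71 (SE 0.66, adjusted p = 0.209), or 2.13 and 3.34 with a pseudocount of 0.1.

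*Apoe* (chr7:19696109-19699188) encodes apolipoprotein E, a lipoprotein component that macrophages and adipocytes secrete and that accepts cholesterol. It was 730, 916, 1349 and 1568 FPKM in control and 889, 1389, 1520 and 1761 FPKM in *Mboat7* ASKO mice on chow, and 480, 517, 922 and 1099 FPKM and 551, 605, 981 and 1167 FPKM on HFD. The values were lower on HFD on average and overlapped in both genotypes, with log2 fold changes of -0.62 (SE 0.34, adjusted p = 0.452) and -0.78 (SE 0.34, adjusted p = 0.291). *Apoe* and *Npc2* together made 89.7% to 98.4% of the summed FPKM of the 10 genes in every mouse. Their balance differed with diet: the FPKM of *Npc2* was 0.223 to 0.421 times that of *Apoe* in the 8 chow mice and 0.459 to 1.67 times in the 8 HFD mice, with no overlap. This ratio was looked at after the values had been seen and was not tested.

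*Nr1h3* (chr2:91184061-91195151) encodes LXRα, the receptor that drives the efflux genes. It was 3.81, 12.2, 23.4 and 25.9 FPKM in control and 8.59, 9.44, 13.5 and 14.0 FPKM in *Mboat7* ASKO mice on chow, and 11.7, 14.0, 14.2 and 18.2 FPKM and 2.87, 4.35, 10.5 and 13.6 FPKM on HFD. The control mice on chow alone covered almost the whole range, and the log2 fold changes of 0.10 (SE 0.53, adjusted p = 0.976) and -0.66 (SE 0.53, adjusted p = 0.628) did not pass. An exon of *Nr1h3* overlaps one of *Gm13783*. After each mouse was rescaled to the same FPKM sum the first difference was -0.12.

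**Figure D2:**
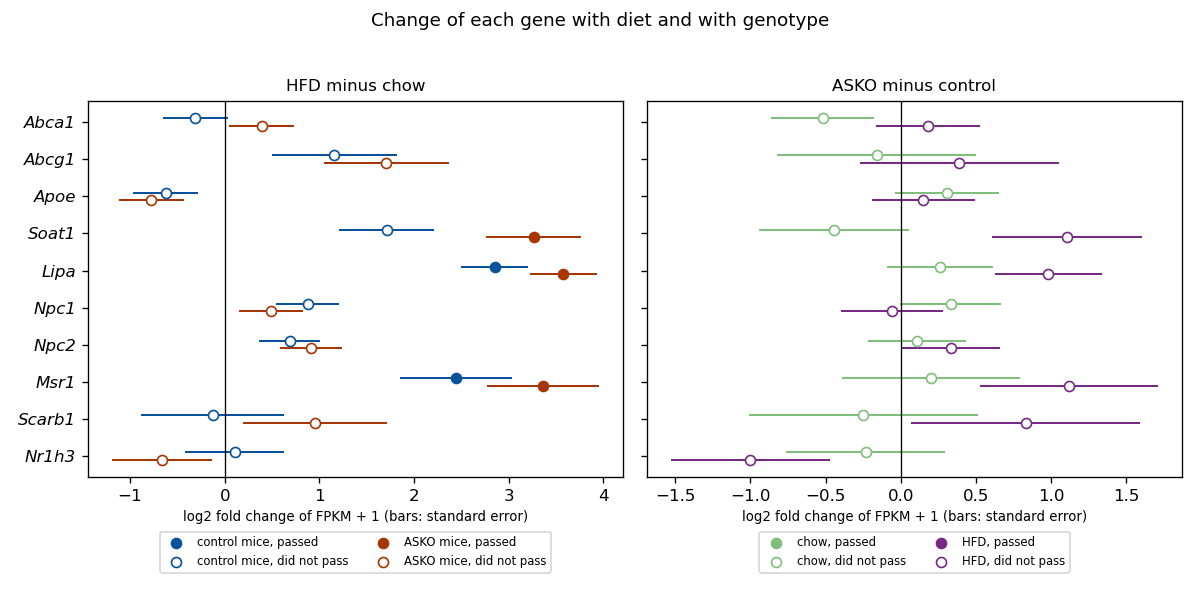
Log2 fold change of FPKM + 1 with its standard error for the 10 genes, HFD minus chow on the left and *Mboat7* ASKO minus control on the right; filled points passed the test. *Lipa* and *Msr1* passed with diet in both genotypes and *Soat1* in *Mboat7* ASKO mice, and no gene passed with genotype.

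Within each group the order of levels was led by *Apoe* and *Npc2*. On chow *Apoe* was above *Npc2* in every mouse and *Npc2* above all others, while below them each gene overlapped the next. On HFD *Apoe* and *Npc2* overlapped each other, and *Lipa* took the third place in both genotypes without overlapping its neighbours on either side (mean 32.2 ± 11.1 FPKM in control and 62.3 ± 3.29 FPKM in *Mboat7* ASKO mice, SD, n = 4). In control mice on chow *Lipa* ranked 7 of the 10.

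The genotype comparison asks whether loss of *Mboat7* from adipocytes goes with other levels of these genes on the same diet. None of the 10 genes passed on HFD and none on chow by limma, where 0.00761% of all genes tested passed in each case (1 gene). At an unadjusted p under 0.05 there were 2 of the 10 on HFD (5.15% of all genes) and 0 on chow (4.80%). On HFD 8 of 10 genes were above 0, with a median log2 fold change of 0.36, and on chow 5 of 10 with a median of -0.03; over all genes 51.5% and 49.6% were above 0. Of the 16 macrophage markers 14 were above 0 on HFD, with a median of 0.37, and 6 on chow, with a median of -0.14; none passed, and their part in the differences was not tested. On HFD *Lipa* was higher in every *Mboat7* ASKO mouse than in every control mouse (57.4 to 64.6 against 23.8 to 48.4 FPKM), at 1.93 times the mean, with a log2 difference of 0.98 (SE 0.35, adjusted p = 0.876). *Scarb1* did not overlap either (3.35 to 3.97 against 0 to 3.23 FPKM), at 0.83 (SE 0.76, adjusted p = 0.993; 1.66 with a pseudocount of 0.1), on 3 to 4 against 0 to 3 fragments. For both, the exact two-sided permutation p was 0.0286, the smallest that 4 mice against 4 can give, before any correction over the 10 genes, and 1.69% of all genes were apart in this direction. *Soat1* was 1.11 higher on the log2 scale in *Mboat7* ASKO mice on HFD (SE 0.50, unadjusted p = 0.0403, adjusted p = 0.946) and *Msr1* 1.12 higher (SE 0.59, adjusted p = 0.973), each with overlap. *Nr1h3* had 0.539 times the control mean (7.83 ± 5.06 against 14.5 ± 2.72 FPKM, SD, n = 4; limma adjusted p = 0.973), with 3 *Mboat7* ASKO mice below all control mice. On chow the differences of the 10 genes ran from -0.52 for *Abca1* to 0.33 for *Npc1*, with overlap in each, where 1.06% of all genes were higher without overlap.

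Whether the diet difference itself depended on genotype was tested as an interaction, in which none of the 10 genes and none of all genes passed by limma; at an unadjusted p under 0.05 there was 1 of the 10, *Soat1*, and 6.29% of all genes. The interaction of *Soat1* was 1.55 on the log2 scale (SE 0.70, unadjusted p = 0.0418, adjusted p = 0.777), and 2.93 with a pseudocount of 0.1 (adjusted p = 0.820). For *Lipa* it was 0.72 (SE 0.50, adjusted p = 0.858) and for *Msr1* 0.92 (SE 0.84, adjusted p = 0.892). That *Soat1* passed with diet in *Mboat7* ASKO mice and not in control mice is therefore not shown to be a difference between the genotypes.

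The genes did not follow macrophage markers as 1 group, and the markers did not move as 1 group either. Each gene was set against the mean log2(FPKM + 1) of the 16 macrophage markers of the same mouse, which was 3.18 ± 0.28 in control and 3.08 ± 0.20 in *Mboat7* ASKO mice on chow and 4.81 ± 0.37 and 5.17 ± 0.19 on HFD (SD, n = 4). *Adgre1*, a surface antigen of mouse macrophages, was 0 to 4.16 FPKM in control mice on chow and 10.5 to 48.9 FPKM on HFD, and *Cd68* was 3.32 to 8.06 and 23.8 to 58.7 FPKM. *Csf1r*, the receptor for the macrophage growth factor, was 37.9 to 46.5 and 43.2 to 87.2 FPKM in the same mice and did not pass in either genotype. Its log2 fold change with HFD was 0.41 in control and -0.43 in *Mboat7* ASKO mice, against 2.95 and 3.25 for *Adgre1*. Of the 16 markers, 15 in control and 14 in *Mboat7* ASKO mice had a log2 fold change above 0. The mean thus hides a wide spread among the markers. *Adipoq*, the adipocyte gene for adiponectin, was 986 to 1871 FPKM in control mice on chow and 367 to 539 FPKM on HFD. The difference between HFD and chow in the marker mean was 1.63 in control and 2.09 in *Mboat7* ASKO mice.

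Relative to that mean, *Lipa* was still higher on HFD in every mouse than in every chow mouse, by 1.23 in control and 1.49 in *Mboat7* ASKO mice on the log2 scale, and on HFD it was 0.62 higher in *Mboat7* ASKO than in control mice, again with no overlap. *Soat1* differed by 0.08 in control mice and by 1.18 in *Mboat7* ASKO mice, without overlap in the latter. *Msr1* was 0.82 and 1.27 higher with overlap, and *Abcg1* differed by -0.47 and -0.38 with overlap. *Apoe* lay lower relative to the markers on HFD in both genotypes without overlap, as did *Abca1*: the difference was -2.25 in control and -2.86 in *Mboat7* ASKO mice for *Apoe*, and -1.94 and -1.70 for *Abca1*. In *Mboat7* ASKO mice *Nr1h3* (-2.75) and *Npc1* (-1.60) were also lower without overlap. *Npc2* (-0.94 and -1.18) and *Scarb1* (-1.76 and -1.14) were lower with overlap in both genotypes. *Soat1*, *Msr1*, *Abcg1* and *Scarb1* were listed at 0 in some chow mice of both genotypes. The size of their differences on this scale therefore rests on the pseudocount. These are differences of log2 values in whole tissue, given as a description. The marker mean itself did not overlap between chow and HFD in either genotype. A gene at a steady level therefore comes out lower on this scale, by 1.63 in control and 2.09 in *Mboat7* ASKO mice. The share of all genes that stand apart on this scale was not computed.

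**Figure D3:**
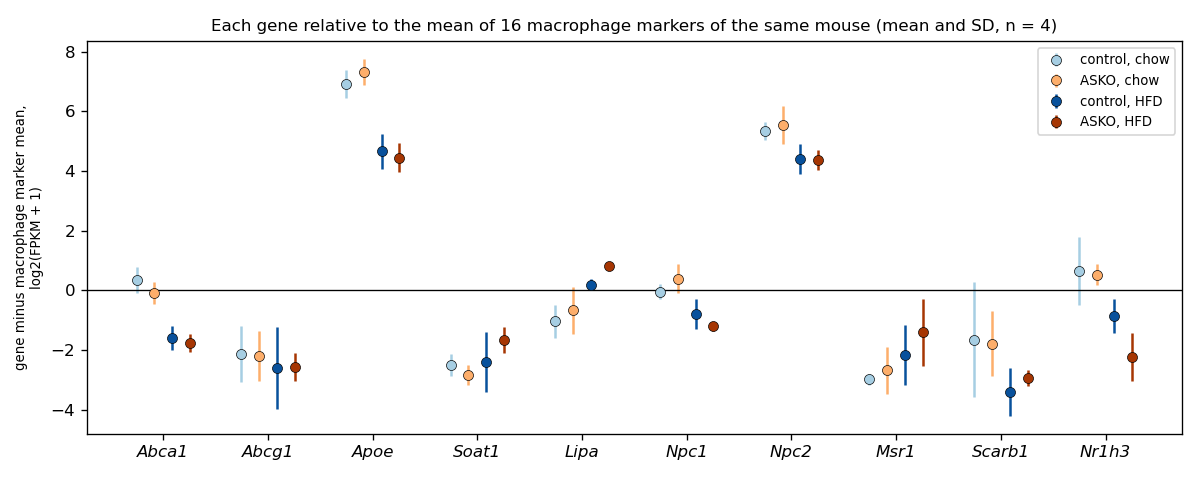
Each gene's log2(FPKM + 1) minus the mean of the 16 macrophage markers in the same mouse, as group mean and SD (n = 4). *Lipa* moves up between chow and HFD, while *Apoe*, *Abca1* and *Nr1h3* move down. The marker mean that is subtracted is itself higher on HFD.

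Across all 16 mice Pearson's r with the macrophage mean was 0.94 for *Lipa*, 0.90 for *Soat1*, 0.87 for *Msr1*, 0.74 for *Npc2*, 0.72 for *Npc1* and 0.66 for *Abcg1*, and 0.21 for *Scarb1*, 0.14 for *Abca1*, -0.21 for *Nr1h3* and -0.51 for *Apoe*. The 16 mice share the diet difference: after the group means were subtracted all 10 values lay between -0.10 and 0.35. Across diets *Lipa*, *Soat1* and *Msr1* thus followed the markers most closely and *Npc2*, *Npc1* and *Abcg1* less so. The whole-tissue levels of *Apoe*, *Nr1h3*, *Abca1* and *Scarb1* did not. This order was not kept after the subtraction, with 0.002 for *Lipa*, 0.21 for *Soat1* and -0.04 for *Msr1*, and 0.35 for *Npc2* and 0.32 for *Apoe*. Which cells hold the RNA of each gene was not tested. Of all pairs of the 10, *Npc1* and *Npc2* had the highest r after the group means were subtracted (0.75, from 0.84 before). *Lipa* and *Msr1*, the highest before the subtraction at 0.89, then had 0.10. *Lipa*, also a gene of release from the lysosome, went from 0.67 to -0.17 with *Npc1* and from 0.64 to -0.35 with *Npc2*. These pairs were picked from many, with no test.

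The genes with the most similar pattern over the 16 mice were taken for each of the 10, by Pearson's r among all genes tested. For *Lipa* they were *Itgax*, which encodes the integrin CD11c, *Adam8* and *Cybb*, a subunit of the phagocyte oxidase, each with r of 0.96. For *Msr1* they were *Slamf8* (0.94), *Gm29439* and *Zranb3* (both 0.93), and for *Soat1* *Lum* (0.95), *Rgs18* and *Rab8b* (both 0.94). *Npc2* was closest to *Fcgr3*, an Fc receptor of myeloid cells (0.92), *Lamtor1* and *Cfl1* (both 0.91), and *Npc1* to *Ctsz*, a lysosomal protease (0.92), *Nedd8* (0.90) and *Pfn1* (0.87). *Apoe* was closest to *Gsta3* (0.91), *Ebpl* (0.83) and *Gadl1* (0.81), *Nr1h3* to *Ecsit* (0.84), *Acaa2* (0.76) and *Kdm5b* (0.75), and *Abca1* to *Ddx5* (0.90), *Fut8* (0.81) and *Angel2* (0.79). For *Abcg1* they were *Dctn1* (0.90), *4931431C16Rik* (0.86) and *Crtac1* (0.85), and for *Scarb1*, on its few fragments, *Sos1* (0.79), *Pcdhgb8* (0.77) and *Larp7* (0.76). With 13147 genes to choose from, high values of r arise in any case, and they are given without a test.

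Other genes of the pathway were taken from a list of 40: LXR partners and targets, cholesteryl ester enzymes, lipoprotein and scavenger receptors and sterol transporters. Of these, 38 were in the table and 32 were tested. In control mice 2 of the 32 passed as higher on HFD (*Nceh1* and *Pltp*) and 1 as lower (*Ces1d*), and in *Mboat7* ASKO mice the same 2 were higher and *Ces1d* and *Scp2* lower, at median log2 fold changes over the 32 of -0.06 and 0.0016. Over all genes 1.10% passed as lower in control and 1.30% in *Mboat7* ASKO mice. With genotype none of the 32 passed on either diet. By group, in both genotypes 1 of 8 LXR targets, 1 of 3 cholesteryl ester enzymes, 0 of 7 receptors, 0 of 9 sterol transporters and 0 of 5 nuclear receptors and cofactors passed as higher.

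*Nceh1*, a hydrolase of cholesteryl esters outside the lysosome that macrophages use, was 0.687 to 2.34 FPKM in control mice on chow and 8.65 to 17.4 FPKM on HFD (log2 fold change 2.46, SE 0.42, adjusted p = 0.00299), and 0 to 1.52 and 17.7 to 26.2 FPKM in *Mboat7* ASKO mice (3.90, SE 0.42, adjusted p = 4.9e-05, and 5.85 with a pseudocount of 0.1). Beside *Lipa* it was thus another ester hydrolase that rose, although in control mice it did not pass at that pseudocount (3.08, adjusted p = 0.0761). *Pltp*, the phospholipid transfer protein and an LXR target, was 5.13 to 9.94 and 27.4 to 46.7 FPKM in control mice (2.15, SE 0.34, adjusted p = 0.00148), and 10.7 to 18.2 and 23.9 to 57.2 FPKM in *Mboat7* ASKO mice (1.58, SE 0.34, adjusted p = 0.0133, and 0.057 without *Mboat7* ASKO HFD replicate 0). *Ces1d*, a carboxylesterase of adipocytes that cuts neutral lipids, fell from 145 to 263 FPKM on chow to 25.2 to 44.9 FPKM on HFD in control mice (-2.46, SE 0.28, adjusted p = 0.000108) and from 123 to 215 to 30.0 to 50.9 FPKM in *Mboat7* ASKO mice (-1.99, SE 0.28, adjusted p = 0.000577). Esterases of the pathway thus moved both ways within the same tissue.

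*Scp2*, a sterol carrier and peroxisomal thiolase, was 376 to 662 FPKM on chow and 182 to 299 FPKM on HFD in *Mboat7* ASKO mice (-1.04, SE 0.25, adjusted p = 0.0281), and 372 to 510 and 176 to 311 FPKM in control mice (-0.88, SE 0.25, adjusted p = 0.0781). Its pass in *Mboat7* ASKO mice was lost under 9 of 27 alternative settings, among them without *Mboat7* ASKO chow replicate 2 (adjusted p = 0.073) and without *Mboat7* ASKO HFD replicate 0 (0.0723), 2 (0.087) or 3 (0.0843). By genotype the largest differences among pathway genes whose mice did not overlap were, on HFD, *Nceh1* (0.78, adjusted p = 0.973) and *Cd36*, the fatty acid and scavenger receptor (0.76, adjusted p = 0.856), both higher in *Mboat7* ASKO mice. On chow they were *Pltp* (0.82, adjusted p = 0.976) and the lipoprotein receptor *Vldlr* (-0.78, adjusted p = 0.983).

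**Figure D4:**
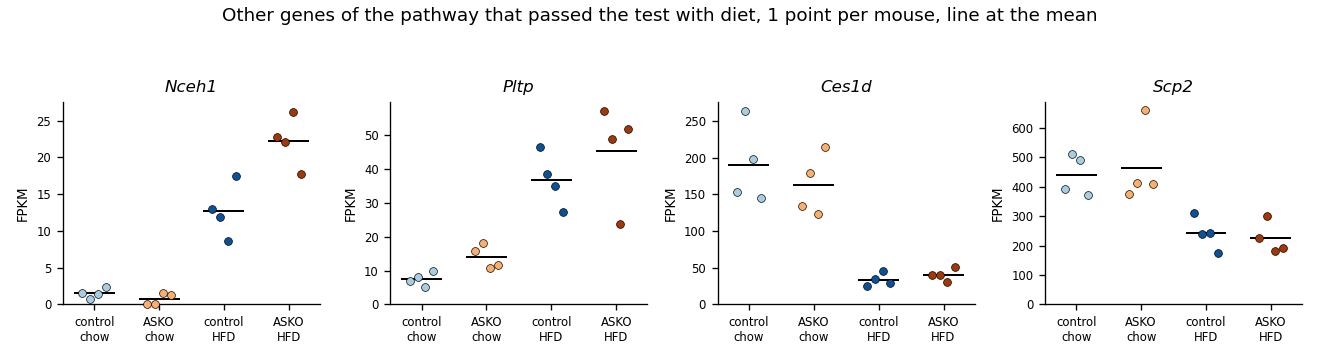
FPKM of *Nceh1*, *Pltp*, *Ces1d* and *Scp2* in each of the 16 mice, with a line at the group mean (n = 4), each panel on its own linear axis from 0. *Nceh1* and *Pltp* are higher and *Ces1d* and *Scp2* lower on HFD.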

How the data were processed

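The mRNA of gWAT was sequenced with a directional kit, 1 library per mouse. Per the methods and the labels, reads were trimmed by the authors (TrimGalore) and aligned to mm10 (STAR, with GENCODE gene models), and Cufflinks gave the FPKM of each gene; the deposited values are these FPKM, with no counts. The GENCODE release and the strand setting were not given in the sources used here.

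The deposited FPKM entered every test as log2(FPKM + 1), so fold changes of low genes are understated. Of 19373 rows, 20 symbols stood on more than 1 row and the row with the highest mean was kept. Identifiers were matched to GENCODE M21 (99.6%). Groups came from the sample labels. A gene was tested where 4 or more mice had 1 FPKM or more, with limma 3.58.1 (R 4.3.3), all 16 mice in 1 fit, the intensity trend on, robust estimation off and no covariate, over 5 contrasts; the Benjamini-Hochberg adjustment ran within each contrast over all 13147 genes. The script was tested on simulated data. Single genes were also compared by exact two-sided permutation of 4 against 4 mice. FPKM keeps no counts, so the depth is an estimate, from the steps that low values take in coding genes with 1 transcript; for low genes whole fragments limit the precision. Motifs were searched as exact letters on both strands of the 250 bases before each start. GAGGAA and GGGCGG were added after the data had been seen.

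The 10 genes, the pathway list and the marker lists were chosen with earlier results of these data known. Besides the 10 genes and *Mboat7*, the text names pathway genes that passed with diet without overlap (up to 4 each way), for genotype up to 2 with the largest difference among those without overlap, 3 most similar genes for each of the 10, and *Adgre1*, *Csf1r*, *Cd68* and *Adipoq*. Alternatives were a filter of 5 FPKM, no filter, a pseudocount of 0.1, upper-quartile scaling, the same FPKM sum, quantile normalization, only the groups compared, robust estimation, no trend, no fold limit, the replicate number as a block, and each mouse left out in turn. The mice of 1 replicate number are different animals; nothing in the labels ties them. Python 3.11.15, numpy 2.4.6, pandas 2.3.3 and matplotlib 3.10.9 were used for tables and plots.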

Additional observations from a re-analysis of the deposited data

Results flagged for a closer look

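In 4 of 40 groups of 4 mice (10 genes in 4 groups), 1 mouse stood farther from the others than Dixon's 95% limit allows. For normal values without ties, chance alone gives about 2. In control mice on HFD, *Soat1* was 12.0 FPKM in replicate 2 and 2.04 to 3.45 FPKM in the others. The other 3 cases are a value above 3 mice listed at 0 and rest on at most 3 fragments. With 3 mice tied at 0 any value above 0 is flagged, so the count of 4 cannot be set against that number. All 3 are from chow, *Soat1* with 0.978 FPKM and *Msr1* with 2.05 FPKM in *Mboat7* ASKO mice, and *Msr1* with 0.748 FPKM in control mice.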

How the results depend on the processing

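The rises of *Lipa* in both genotypes and of *Msr1* and *Soat1* in *Mboat7* ASKO mice passed under every alternative listed, as 3 of 10 genes in *Mboat7* ASKO mice; the genotype and interaction counts stayed at 0 of 10. In control mice the count of 2 fell to 1 with no filter on low values and with the replicate block (*Msr1* adjusted p = 0.0503 and 0.0524), and ran from 1 to 2 when a mouse was left out. Of 1327 values of the 10 genes under alternatives, 1285 kept direction and side of the threshold, 8 (all *Msr1* in control mice) lost the pass and 34 changed sign, all among values that had not passed. *Abcg1* and *Scarb1* could not be fitted at a filter of 5 FPKM, nor *Abcg1*, *Soat1* and *Msr1* on chow with only the groups compared. For the other pathway genes (alternatives chosen after seeing the data), 11 of 324 values lost and 4 gained a pass.

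Rescaling to the same FPKM sum put the median log2 difference of all genes at -0.17 (diet, control), 0.11 (diet, *Mboat7* ASKO), 0.17 (genotype, HFD), -0.11 (genotype, chow) and 0.30 (interaction). Sign changes outside the left-out mice were *Scarb1* at a pseudocount of 0.1 (0.48 with diet in control mice, 0.31 with genotype on chow), at the same FPKM sum *Nr1h3* with diet in control mice (-0.12), *Npc1* with genotype on HFD (0.13), *Npc2* with genotype on chow (-0.049) and *Apoe* in the interaction (0.20), and by quantile normalization *Apoe* in the interaction (0.26); the cause was not tested. With a mouse left out, log2 differences ran from -0.64 to 0.58 (*Scarb1*) and -0.42 to 0.41 (*Nr1h3*) with diet in control mice; from -0.023 to 0.82 (*Abcg1*), -0.039 to 0.36 (*Apoe*) and -0.20 to 0.087 (*Npc1*) with genotype on HFD; from -0.52 to 0.29 (*Abcg1*), -0.080 to 0.44 (*Npc2*), -0.20 to 0.40 (*Msr1*), -0.76 to 0.46 (*Scarb1*) and -0.76 to 0.070 (*Nr1h3*) with genotype on chow; and from -0.36 to 0.056 (*Apoe*) and -0.10 to 0.41 (*Npc2*) in the interaction.

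Over all genes, the number that passed ran from 257 to 419 (383 with all mice) with diet in control mice and from 264 to 492 (451) in *Mboat7* ASKO mice when a mouse was left out. Same-numbered mice of different groups had deviations that correlated between -0.19 and 0.15, and 1 of 24 pairs was above 0.1, so the numbers were not taken as pairs; the replicate block changed no other call of the 10 genes. P-values measure the spread between 4 mice a group, and at 232000 to 407000 fragments values near 1 FPKM rest on a few fragments.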

Other observations

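After group means were subtracted, *Apoe* was still closest to *Gsta3* (Pearson's r = 0.95 over 16 mice) and *Abca1* to *Ddx5* (0.90), and *Abcg1* kept *Dctn1* among its 3 closest genes (0.84). The complement gene *C1qa*, a marker of macrophages, came next for *Apoe* (0.90). *Npc2* was closest to *Lep*, the adipocyte gene for leptin (0.93), and to *Thrsp*, a gene of fat synthesis (0.92). *Npc1* kept *Ctsz* among its 3 closest genes (0.87), and *Lipa* had *Pkd2* (0.89), *Rilpl2* (0.87) and *Wfdc17* (0.85). With the mean of the 10 adipocyte markers, r within groups was 0.66 for *Npc2*, 0.58 for *Nr1h3* and 0.55 for *Npc1*, and -0.48 for *Scarb1*. These are descriptions over 16 mice of 4 groups, chosen as the highest among 13147 genes, with no test.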
